A study of Mus musculus with 12 samples.

Results

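Bone marrow of mice that carry an activated STAT3 and drank short-chain fatty acids (SCFAs) was compared with bone marrow of control mice that drank none, to ask which genes of the STAT3C marrow were back at the untreated control level under SCFA and which lay further from it. The comparison uses 6 of the 12 RNA-seq libraries of the study, chosen by their labels: homozygous SCFA 1 to 3 against control untreated 1 to 3. The other 6 libraries, homozygous untreated 1 to 3 and control SCFA 1 to 3, are given beside them, since a gene can only be called back if it differed in the homozygous mice without SCFA. All 12 libraries hold RNA of the non-adherent progenitor cells of bone marrow from mice about 8 weeks old, after about 24 hours of culture in alpha-MEM. The homozygous mice are R26STAT3Cstopfl/fl CD4Cre, so that STAT3C is read from the Rosa26 locus once a Cre recombinase under the CD4 promoter, active mainly in T cells, has removed a stop cassette; the genotype entry of homozygous untreated 1 is worded differently, and it was grouped by its title. SCFA mice were given the fatty acids with their water up to that age. The labels carry day 30 of month 3 for both SCFA groups and day 1 of the same month for both untreated groups. Between homozygous SCFA and control untreated libraries, genotype, treatment and label date all differ and cannot be told apart.

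STAT3 is a transcription factor that cytokines of the interleukin 6 family switch on by phosphorylation, and STAT3C is a form of it that stays paired and active without that signal. SCFAs are made by gut bacteria from fibre, act on cells through surface receptors and inhibit histone deacetylases. In bone marrow, interferons induce 2 overlapping sets of genes: type I interferons act through a complex that holds STAT2 and IRF9, and interferon-gamma acts through paired STAT proteins without them. Marrow also makes B cells, which assemble their antigen receptors there, red cells, platelets and the granulocytes and monocytes from which bone-resorbing osteoclasts arise.

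Levels are given as CPM, each gene's read count relative to the size of its library after scaling with TMM factors, and differences as log2 fold changes, homozygous SCFA over control untreated unless another pair is named. Totals were 17808825 to 19683751 counts in the homozygous SCFA libraries and 16954355 to 18926194 in the control untreated libraries, and 16954355 to 20748995 over all 12. A gene with 0 counts in all 3 homozygous SCFA libraries may have had up to 0.0538 CPM (3 counts over the group, counting error only). Whether the 3 libraries of each group stem from different mice is not stated in the labels, so p-values cover only the spread between these libraries. The 3 control untreated libraries were spread out on the second principal component (4.63, 87.4 and 41.5), with libraries 1 and 2 the least alike, and counts are given without each library where they move. Neutrophil and monocyte markers, which this compartment should hold, were high in every group: the late neutrophil list summed to 71424.4 to 82751.8 CPM in homozygous SCFA libraries and 43240.6 to 64375.1 CPM in control untreated libraries. Stat3 itself had 319, 374 and 398 CPM in homozygous SCFA libraries, against 274, 438 and 359 CPM in control untreated libraries, and lay within 1.5-fold (adjusted p = 0.0271 for equivalence). That equivalence was lost in 5 of 12 fits with 1 library left out, with adjusted p = 0.0501 without control untreated 2, 0.0802 without control untreated 3 and 0.0711, 0.0797 and 0.0865 without homozygous SCFA 1, 2 and 3. Against control SCFA libraries Stat3 was higher in homozygous SCFA libraries (log2 fold change 0.60, adjusted p = 0.0157). Control SCFA libraries were in turn below control untreated ones (-0.58, adjusted p = 0.0192). A count of Stat3 reads covers the endogenous gene and the transgene alike, so it does not check the genotype. Cd3e, a T cell receptor chain of the lineage in which the Cre is active, was at 3.7, 3.37 and 1.88 CPM in homozygous SCFA libraries and 2.85, 3.7 and 4.21 CPM in control untreated libraries.

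Promoter sequence is shown for 5 interferon-induced genes, because the results on these genes differ by gene and the letters let the promoters be set beside the levels given further on. The 160 bases before each start site are from RefSeq on GRCm38.p6, read 5′ to 3′ on the gene's own strand. Capitals mark the interferon element, GAAA followed by any 2 bases and a second GAAA, which interferon-activated complexes bind, and TTCNNNGAA, the palindrome that paired STATs bind; both were searched on both strands. The genes were chosen after their values were seen.
Igtp, chr11:58199396-58199555, plus strand: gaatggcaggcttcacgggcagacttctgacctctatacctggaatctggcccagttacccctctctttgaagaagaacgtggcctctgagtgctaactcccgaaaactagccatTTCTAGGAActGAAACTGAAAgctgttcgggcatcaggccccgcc
Irgm2, chr11:58214817-58214976, plus strand: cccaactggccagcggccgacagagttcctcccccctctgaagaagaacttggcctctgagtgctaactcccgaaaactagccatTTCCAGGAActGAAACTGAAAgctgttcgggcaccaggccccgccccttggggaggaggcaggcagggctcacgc
Isg15, chr4:156200819-156200978, minus strand: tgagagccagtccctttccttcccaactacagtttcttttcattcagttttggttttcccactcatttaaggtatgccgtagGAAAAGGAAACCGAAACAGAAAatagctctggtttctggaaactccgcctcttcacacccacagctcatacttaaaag
Rsad2, chr12:26456453-26456612, minus strand: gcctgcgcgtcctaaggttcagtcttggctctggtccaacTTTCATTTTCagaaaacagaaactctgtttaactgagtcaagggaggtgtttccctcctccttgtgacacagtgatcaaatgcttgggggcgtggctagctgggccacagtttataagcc
Ifi208, chr1:173673505-173673664, plus strand: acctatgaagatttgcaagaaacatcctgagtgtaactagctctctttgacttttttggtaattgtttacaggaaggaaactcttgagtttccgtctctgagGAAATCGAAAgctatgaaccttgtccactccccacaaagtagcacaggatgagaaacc
Igtp and Irgm2, interferon-induced GTPases that were only partly back at the control level, hold TTCNNNGAA with the interferon element beginning 11 bases after it. The stretch around that pair of motifs reads nearly alike in both genes, so they are not independent examples. Isg15 and Rsad2, which fell below the control level, hold matches of the interferon element and none of TTCNNNGAA in these 160 bases, 3 overlapping matches in Isg15 and a reverse-strand match in Rsad2. Ifi208, which crossed from above to below the control level, holds 1 match of the interferon element. Over all 32851 RefSeq promoters of 300 bases, 3.44% hold the interferon element, 8.3% hold TTCNNNGAA, 149 hold both and 24 have matches of both that overlap. The arrangement with 11 bases between the motif starts is found in 5 of them (0.015%), those of Igtp, Irgm2, Tgtp1, Tgtp2 and Gm12185, of which the first 4 were partly back and Gm12185 was in no class. The spacing searched for is that of Igtp and Irgm2, which were chosen with their class known. The stretch around the motifs in Tgtp1 reads nearly like theirs. The class these genes share is therefore no independent result. Shares over whole gene groups are not given, because only 16 of the 25 genes partly back, 22 of the 32 of the type I list and 16 of the 23 of the interferon-gamma list have an entry in the table, under the 80% needed. A match is a description of the letters and not a bound site.

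Of 15674 genes tested, 768 rose (4.9%) and 1084 fell (6.92%) in homozygous SCFA against control untreated libraries at an adjusted p under 0.05. Large falls outnumbered large rises: 761 genes (4.86%) were called and at least 2-fold lower, and 208 (1.33%) were called and at least 2-fold higher. An equivalence test placed 2210 genes (14.1%) within 1.5-fold of the control untreated level, and 11613 genes passed neither the test of a difference nor the test of equivalence. For 4026 genes (25.7%) the homozygous SCFA and control untreated libraries showed no overlap. The number of rises was 1338 without control untreated 1, 457 without control untreated 3 and 426 without homozygous SCFA 1. The total of 1852 was 1199 without homozygous SCFA 1, and it was 1461 without control untreated 2.

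The position of each gene was then read against the homozygous mice without SCFA. Between homozygous SCFA and homozygous untreated libraries 1501 genes were called (9.58%), with 3.96% rising and 5.61% falling. Between homozygous untreated and control untreated libraries 2323 genes were called (14.8%), with 6.69% rising and 8.13% falling. Of these 2323 genes 183 (7.88%) were back: they moved the opposite way under SCFA and lay within 1.5-fold of the control untreated level. Another 25 (1.08%) were partly back, having moved toward the control level and still differing from it, and all 25 were higher in homozygous untreated libraries. A further 589 (25.4%) kept their difference with no detected change under SCFA, and 26 (1.12%) crossed to the other side of the control level. The 195 genes that lay further (8.39%) were mostly low ones, with 182 lower and 13 higher than in control untreated libraries. The remaining 1305 (56.2%) met none of these definitions and are called undecided. None of them was called against control untreated, and 242 were called between the 2 homozygous groups. Of the 1305, 144 lay within 1.5-fold of the control untreated level without meeting the definition of back. Besides these, 431 genes did not differ in homozygous untreated libraries and were displaced under SCFA from both untreated groups, 145 of them higher and 286 lower. The 3 comparisons behind these classes share libraries, so their counts are not independent of each other. With a margin of 2-fold in place of 1.5-fold, 397 genes were back and 12 partly back.

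**Figure D1:**
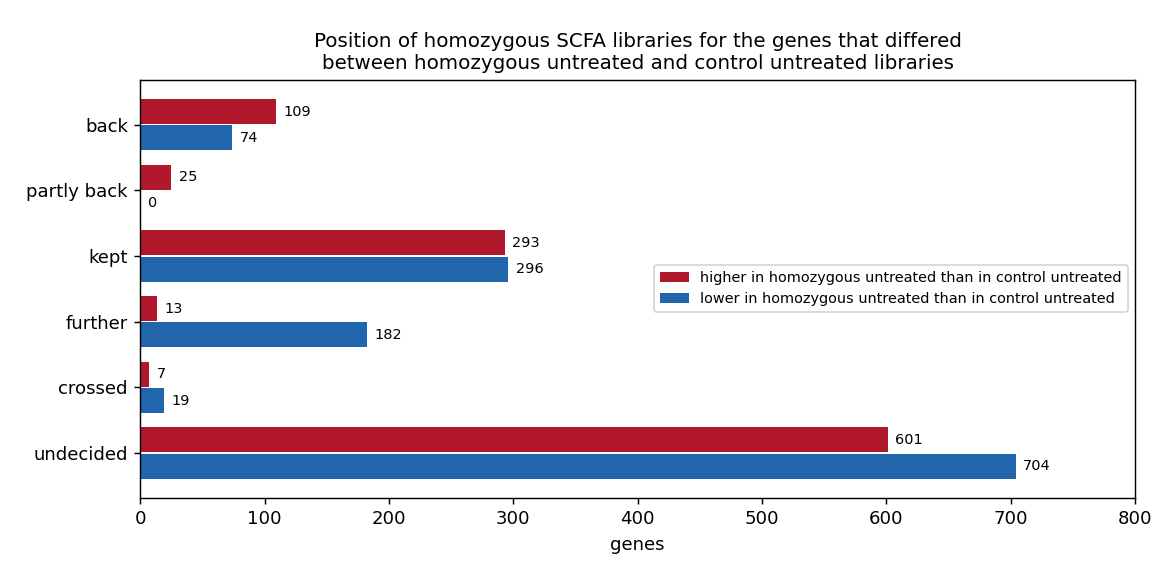
Number of genes (x axis) in each class (y axis) among the 2323 genes that differed between homozygous untreated and control untreated libraries, split by whether they were higher (red) or lower (blue) in homozygous untreated libraries. Genes further from the control level were mostly lower ones (182 of 195), and the 25 genes partly back were all higher ones.

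These counts depended on single libraries. The 2323 genes called without SCFA numbered 888 and 770 without homozygous untreated 1 and 2, and 4333, 883 and 1109 without control untreated 1, 2 and 3. The 1501 called between the homozygous groups numbered 762 and 743 without homozygous SCFA 2 and 3, and 883 and 797 without homozygous untreated 1 and 2. The number of genes back was 0 without control untreated 3 or any 1 of homozygous SCFA 1, 2 and 3. It was 119 and 82 without control SCFA 1 and 2, 79 without control untreated 2, and 46, 42 and 93 without homozygous untreated 1, 2 and 3. Genes partly back numbered 53 without control untreated 1 and 15, 16 and 15 without homozygous SCFA 1, 2 and 3. Kept genes numbered 1464, 261 and 308 without control untreated 1, 2 and 3, 384 without homozygous SCFA 1, and 331 and 299 without homozygous untreated 1 and 2. Genes further numbered 117 and 103 without homozygous untreated 1 and 2. Genes that crossed numbered 15 without homozygous SCFA 3, 13 and 14 without homozygous untreated 1 and 2, and 11 without control untreated 3. Displaced genes numbered 264 and 254 without homozygous SCFA 2 and 3. Undecided genes numbered 362 and 294 without homozygous untreated 1 and 2, and 2356, 339 and 632 without control untreated 1, 2 and 3. The number within 1.5-fold was 1370 without control SCFA 2, 1031 without control untreated 1, and 0 without control untreated 3 or without homozygous SCFA 1, 2 or 3. With a 2-fold margin it was 8312, and it stayed between 7190 and 8263 in every fit with 1 library left out. The 397 genes back at that margin numbered 152 and 147 without homozygous SCFA 2 and 3, 137 and 114 without homozygous untreated 1 and 2, 255 without control SCFA 2, and 766, 221 and 198 without control untreated 1, 2 and 3. Because no gene passed the 1.5-fold test without control untreated 3 or without any 1 of the homozygous SCFA libraries, each equivalence call given from here on was lost in those 4 fits.

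Some type I interferon response genes returned to the untreated control level under SCFA. Ifit2, an inhibitor of viral translation, had 36.6, 33.0 and 40.0 CPM in homozygous SCFA libraries and 189, 208 and 198 CPM in homozygous untreated libraries, against 32.6, 39.2 and 31.5 CPM in control untreated libraries. The homozygous SCFA and control untreated libraries overlapped, and both lay far below the homozygous untreated ones. Its log2 fold change against control untreated was 0.09 ± 0.14 (SE; adjusted p = 0.0281 for equivalence), and against homozygous untreated it fell by 2.44 (adjusted p = 7.1e-08). Slfn5, an interferon-induced Schlafen protein, had 76, 69.1 and 61 CPM in homozygous SCFA libraries and 192, 205 and 236 CPM in homozygous untreated libraries, against 64.8, 67.9 and 67.6 CPM in control untreated libraries. Slfn4, its relative in myeloid cells, averaged within 1.5-fold of the control level in the same way (log2 fold change -0.03 ± 0.15, equivalence adjusted p = 0.0252). Rnf213, an interferon-induced ubiquitin ligase, and Eif2ak2, the double-stranded RNA sensor PKR, were also back, at 0.14 and 0.04 (equivalence adjusted p = 0.0447 and 0.0279). So was H2-Q6, a non-classical MHC class I gene with close copies, at -0.17 (equivalence adjusted p = 0.0433). Rnf213 lost the 1.5-fold call in 9 of 12 fits with 1 library left out, H2-Q6 in 6, Eif2ak2 in 5 and Ifit2, Slfn5 and Slfn4 in the 4 named above. The call at a 2-fold margin, a choice made after seeing the data, held for all 6 in 12 of 12 fits. Control SCFA libraries lay above control untreated ones for Ifit2, Slfn5, H2-Q6 and Eif2ak2 (log2 fold changes 0.73, 0.54, 0.53 and 0.44). Slfn4 and Rnf213 were not called between the control groups. Homozygous SCFA libraries were below control SCFA ones for Ifit2, Slfn5 and H2-Q6 at -0.64, -0.50 and -0.70 (adjusted p = 0.00606, 0.0125 and 0.00358). Slfn4, Rnf213 and Eif2ak2 were not called there (-0.06, 0.13 and -0.40, adjusted p = 0.826, 0.606 and 0.0835).

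Other genes of that response fell below the control level. Isg15, the ubiquitin-like modifier whose promoter is printed above, had 11.3, 14.7 and 12.7 CPM in homozygous SCFA libraries and 76.4, 54.8 and 61 CPM in homozygous untreated libraries, against 45.9, 54.6 and 58.1 CPM in control untreated libraries. All 3 homozygous SCFA libraries lay below every library of the other 3 groups, control SCFA included at 30.8, 31.1 and 28.2 CPM. Isg15 was thus down, with a log2 difference of -2.04 ± 0.17 (SE, adjusted p = 7.3e-07). Rsad2, the antiviral enzyme viperin, had 88.6, 60.6 and 68.5 CPM in homozygous SCFA libraries, against 512, 453 and 464 CPM in control untreated libraries, and fell by 2.71 ± 0.16 (SE, adjusted p = 2.4e-08). Neither gene was called between homozygous untreated and control untreated libraries (log2 fold changes 0.28 and 0.10), so both belong to the displaced genes. Irf9 and Stat2, which act together in the type I complex, were displaced as well, with falls of 0.63 (adjusted p = 0.00166) and 0.66 (adjusted p = 0.0221).

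The genes that crossed the control level downward were, by the definition of that class, raised in homozygous untreated libraries. Usp18, which removes ISG15 and dampens the interferon receptor, had 14.2, 15.5 and 16.4 CPM in homozygous SCFA libraries and 80.0, 86.3 and 75 CPM in homozygous untreated libraries, against 36.8, 52.6 and 40.5 CPM in control untreated libraries. It was therefore above the control level without SCFA and below it with SCFA, with no overlap between any of these 3 groups (log2 fold change -1.50 ± 0.15, adjusted p = 8.7e-06). Irf7, the transcription factor that amplifies interferon production, had 56, 59 and 57.7 CPM in homozygous SCFA libraries and 236, 207 and 243 CPM in homozygous untreated libraries, against 93.6, 120.2 and 97.6 CPM in control untreated libraries. It fell by 0.85 (adjusted p = 3.1e-04). Ifi27l2a, an interferon-induced membrane protein, fell by 1.03 (adjusted p = 3.6e-04), and Oasl1, a repressor of Irf7 translation, by 0.69 (adjusted p = 0.0178). Ifi208, of the interferon-inducible Ifi200 family, fell by 1.01 (adjusted p = 0.0288), a call lost without control untreated 3 (adjusted p = 0.0745) and without homozygous SCFA 1 or 2 (adjusted p = 0.116 and 0.0556).

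Of the 22 interferon-gamma response genes tested 9 were above the control level, 7 of them partly back and 2 kept. Iigp1, a GTPase that attacks the vacuoles of intracellular parasites, had 21.5, 20.1 and 24.1 CPM in homozygous SCFA libraries and 62.9, 65.8 and 76.9 CPM in homozygous untreated libraries, against 1.03, 0.859 and 2.59 CPM in control untreated libraries. Its level in homozygous SCFA libraries lay between the other 2 groups without overlap, 3.85 ± 0.44 (SE, adjusted p = 3.3e-05) above the control level on the log2 scale and 4.52 without control untreated 3. Gbp2, a guanylate-binding protein of the same defence, had 161, 132 and 147 CPM in homozygous SCFA libraries and 299.9, 292 and 267 CPM in homozygous untreated libraries, against 34.1, 21.8 and 37.9 CPM in control untreated libraries. It was up by 2.23 ± 0.20 (SE, adjusted p = 2.4e-06). Irgm2 had 87.3, 69.1 and 76.4 CPM in homozygous SCFA libraries and 112, 162 and 163 CPM in homozygous untreated libraries, against 35.5, 48.9 and 51.1 CPM in control untreated libraries (log2 fold change 0.78 ± 0.18, adjusted p = 0.00917). Igtp was partly back in the same way at 0.81 (adjusted p = 1.9e-04). Gbp3 kept its difference, at 0.98 (adjusted p = 8.5e-04), with -0.14 between homozygous SCFA and homozygous untreated libraries (adjusted p = 0.64). Members of the Gbp, Ifit, Slfn and GTPase families resemble one another closely, and the split of reads among them is uncertain.

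Over the 2 lists, 4 of the 32 type I genes tested rose and 8 fell against control untreated, at a median of -0.36, beside 4.9% and 6.92% of all genes, while 9 of the 22 interferon-gamma genes rose and 1 fell, at a median of 0.58. The median of all genes tested was -0.01. Between homozygous untreated and control untreated libraries the same medians were 1.25 for the type I list and 1.35 for the interferon-gamma list. Of the type I list 3 members were back, 4 partly back, 4 crossed and 4 displaced, and for 15, the largest class, the position was undecided. Of the interferon-gamma list 7 were partly back, 2 kept and 8 undecided. Against homozygous untreated libraries 31 of the 32 type I genes fell and 0 rose, at a median of -1.61. In that comparison 11 of the 22 interferon-gamma genes fell and 0 rose, at a median of -0.76, beside 5.61% of all genes falling. The count of type I rises was 2 without control untreated 2 or control untreated 3 and 1 without homozygous SCFA 1; the single interferon-gamma fall, that of Socs1, was not called without control untreated 2, homozygous SCFA 1 or homozygous SCFA 3. Of 10 markers of plasmacytoid dendritic cells, a main source of type I interferon, 0 rose and 8 fell, at a median of -2.24. Between homozygous untreated and control untreated libraries, where 26 type I genes rose, 0 of these markers rose and 3 fell, at a median of -0.56. Their summed level was 257 to 332 CPM in homozygous SCFA libraries and 464 to 547 CPM in homozygous untreated libraries, against 802 to 943 CPM in control untreated libraries, and none was at 0 counts in a whole group. Their part in the interferon genes was not tested. In a bulk library fewer cells of a type and less RNA per cell cannot be told apart, here and for every cell type that follows. Siglech, a surface marker of these cells, had 19.6, 24.4 and 16.7 CPM in homozygous SCFA libraries and 89.4, 82.2 and 70.9 CPM in homozygous untreated libraries, against 129, 80.9 and 111 CPM in control untreated libraries (log2 fold change -2.40 ± 0.19, adjusted p = 5.7e-07). Between the 2 untreated groups Siglech was not called (-0.40, adjusted p = 0.134). Ly6d, another member of the list, had 243, 318 and 256 CPM in control untreated libraries. It had 85.7, 68.7 and 79.3 CPM in homozygous untreated and 17.6, 29.2 and 25.1 CPM in homozygous SCFA libraries. Much of the fall in the summed level was thus that of Ly6d, and its cell source was not tested.

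**Figure D2:**
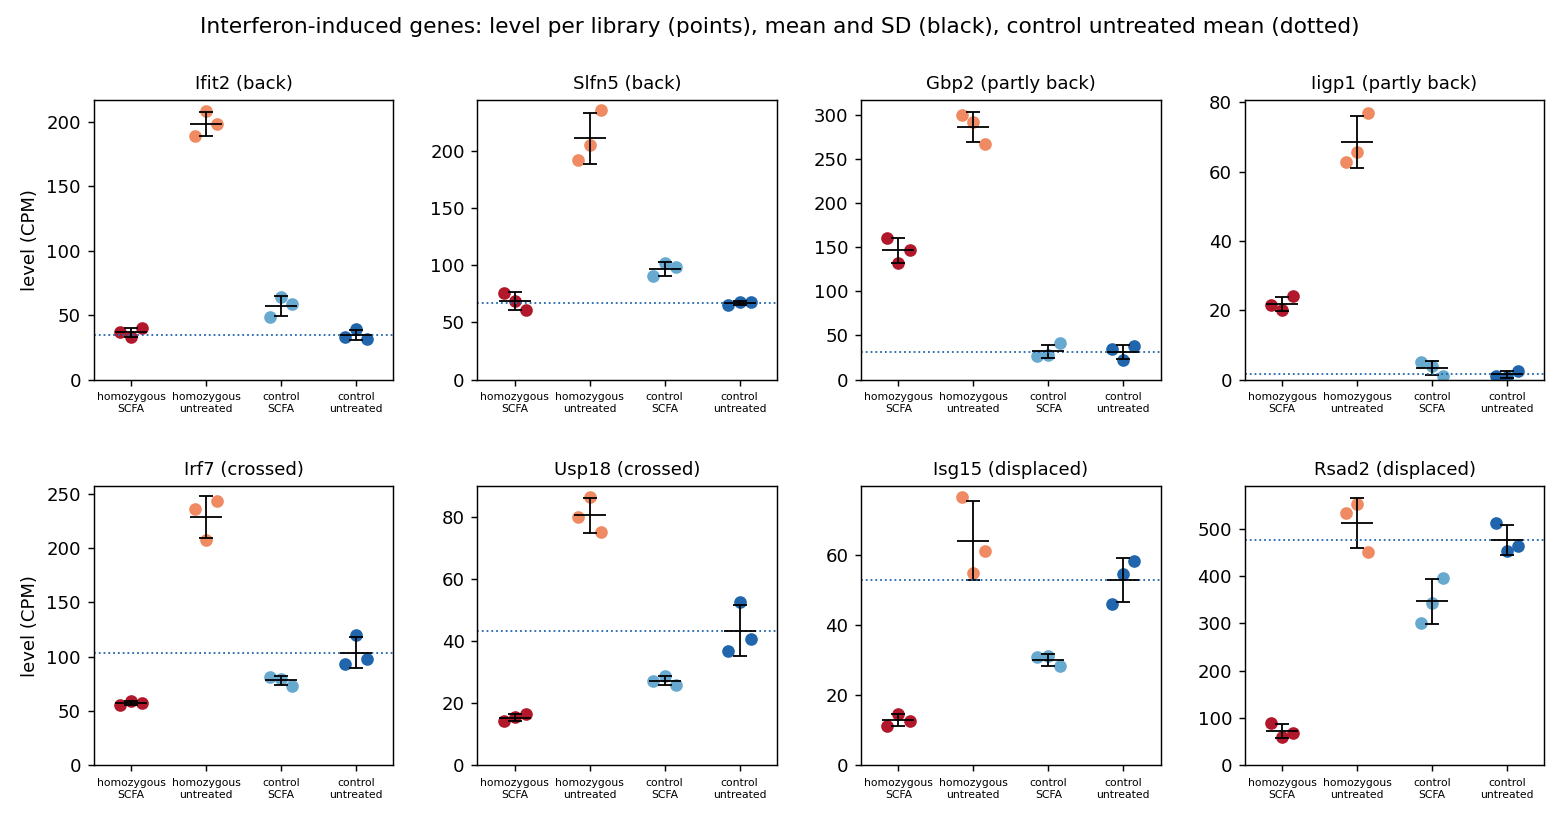
Level in CPM (y axis) of 8 interferon-induced genes in each library (points) of the 4 groups (x axis), with the mean and SD of each group in black (n = 3) and the control untreated mean as a dotted line. Homozygous SCFA libraries sit at the dotted line for Ifit2 and Slfn5, between it and homozygous untreated libraries for Gbp2 and Iigp1, and below it for Irf7, Usp18, Isg15 and Rsad2.

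B lineage genes lay far below the control level. Ebf1, the transcription factor that commits progenitors to the B lineage (mm10 chromosome 11, 44617317 to 45008091, protein-coding), had 8.48, 8.03 and 8.61 CPM in homozygous SCFA libraries and 42, 52.2 and 47.1 CPM in homozygous untreated libraries. In control untreated libraries it had 119.5, 121 and 119.8 CPM. The 3 groups formed steps with no overlap, and Ebf1 fell by 3.84 ± 0.13 (SE, adjusted p = 1.4e-10) against control untreated and by 2.49 (adjusted p = 1.4e-08) against homozygous untreated. In control SCFA libraries it had 169.7, 163 and 184 CPM, above the control untreated ones. All 12 genes of the list of B lineage transcription factors fell, at a median of -3.20. Among them were Pax5, which keeps B cell identity, by 3.49, Bach2, which represses plasma cell genes, by 3.97 and Spib, an ETS factor, by 4.39.

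Of 12 genes that build and test the antigen receptor 9 fell, and 3 of them, Rag1, Rag2 and Vpreb2, had 0 counts in every homozygous SCFA library. Rag1, the recombinase that cuts antigen receptor genes (mm10 chromosome 2, 101638282 to 101649501, protein-coding), had 0 counts in all 3 homozygous SCFA libraries and 19.5, 17.3 and 13 CPM in homozygous untreated libraries, against 44, 44.4 and 35.8 CPM in control untreated libraries. Taken at 3 counts over the group, this is at least 765-fold lower than in control untreated (adjusted p = 4.0e-09). Rag2, its partner, also had 0 counts and was at least 630.3-fold lower, but it did not pass the test between homozygous untreated and control untreated libraries (log2 fold change -0.72, adjusted p = 0.0807). Igll1, part of the surrogate light chain that pre-B cells use, had 3 counts over the group against 2085, a ratio of 0.00146 with a 95% exact interval of 0.000301 to 0.00428 for counting error. Vpreb3, which assists receptor assembly, had 1.61, 2.91 and 3.99 CPM in homozygous SCFA libraries and 39.3, 32.1 and 36.6 CPM in homozygous untreated libraries, against 107, 108 and 102 CPM in control untreated libraries (log2 fold change -5.22 ± 0.23, adjusted p = 1.6e-09). The median of this V(D)J and pre-B list was -4.25 (-4.23 with the 3 members at 0 counts set to their bound), with 0 rises. The repair genes Xrcc4 and Prkdc, which every cell uses, were at 0.09 and 0.01 (adjusted p = 0.869 and 0.979).

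The B cell receptor was low but measurable. Ighm, the IgM heavy chain, had 196, 217 and 233 CPM in homozygous SCFA libraries and 535, 493 and 534 CPM in homozygous untreated libraries, against 1344.8, 1598.4 and 1436.2 CPM in control untreated libraries. The 3 groups did not overlap, and it fell by 2.76 ± 0.11 (SE, adjusted p = 5.7e-10). Cd72, an inhibitory coreceptor, fell by 4.41 (adjusted p = 1.4e-10), Cd79b, the signalling chain of the receptor, by 3.26 (adjusted p = 3.5e-10), and Blk, a B cell kinase, by 4.49. Of this list 14 of 16 members fell and 0 rose, at a median of -2.89, and Btk, a kinase that myeloid cells also express, was at -0.23 (adjusted p = 0.304). Counts of falls in these 3 lists stayed at 9, at 12 and between 13 and 14 in the 12 fits with 1 library left out.

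Several genes without a known B cell role had 0 counts in every homozygous SCFA library too. Col5a3, a collagen chain, was at 2.71, 4.27 and 5.67 CPM in homozygous untreated libraries and 24.3, 45.8 and 35 CPM in control untreated libraries, and its level in homozygous SCFA libraries was at least 655-fold lower than in control untreated. The bound was at least 316-fold lower for Gfra1, a receptor for the growth factor GDNF, at least 219-fold lower for Lgr5, a stem cell receptor for R-spondins, and at least 218-fold lower for Tnfrsf19, a receptor of the TNF family. Sertad4, Tmem132e, Egfl6 and Gpr12 followed with at least 207-fold, 179.9-fold, 104-fold and 103-fold lower levels. Levels of these genes in homozygous untreated libraries lay between the other 2 groups, except that Egfl6 had 0, 0.668 and 1.66 CPM there, which includes a library at 0. Of 10 stromal and endothelial markers tested 0 rose and 3 fell, beside 4.9% and 6.92% of all genes. Their sums were 37.8 to 43.1 CPM in homozygous SCFA libraries and 64 to 118 CPM in control untreated libraries. Lepr, Col3a1, Pdgfra and Bglap, all too low to be tested, had 0 counts in the homozygous SCFA group. Pdgfra and Bglap were also at 0 in homozygous untreated libraries, Lepr and Bglap in control SCFA libraries and Lepr in control untreated libraries. The part of these cells in the loss of the collagen gene was not tested.

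Of 19 T cell genes tested 1 rose and 4 fell, beside 11.8% of all genes called in either direction, at a median of -0.31, and the rise was not called without control untreated 1 or 3 or homozygous SCFA 2 or 3. Cd2, an adhesion receptor also found on B cell precursors, fell by 2.74 (adjusted p = 5.9e-07), and Cd8a, which some dendritic cells express, by 1.67 (adjusted p = 3.0e-04). Cd4 had 0.537, 0.971 and 3.08 CPM in homozygous SCFA libraries, against 5.02, 7.41 and 8.47 CPM in control untreated libraries. It fell by 2.19 (adjusted p = 0.0125), a call lost without homozygous SCFA 1 or 2 (adjusted p = 0.051 and 0.0609), and the value was -3.16 without homozygous SCFA 3. The T cell receptor chains Cd3d, Cd3e and Cd3g were at -0.19, -0.26 and -0.10 and passed neither test. Gzmb, a granule protease of cytotoxic cells, was the single called member of the list of 10 NK and cytotoxic genes, of which 2 were called without homozygous SCFA 2. It had 6.98, 7.77 and 6.95 CPM in homozygous SCFA libraries, against 0.799, 0.107 and 0.636 CPM in control untreated libraries (log2 fold change 3.80 ± 0.48, adjusted p = 8.7e-05), and kept that difference. Of the plasma cell list 3 of 7 members fell, among them Irf4 (-3.21), which B cells use as well, and the surface proteoglycan Sdc1 (-2.10).

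Of 19 red cell genes tested 12 fell, 7 of which lay further below the control level than in homozygous untreated libraries. Alas2, the rate-limiting enzyme of heme synthesis in red cells (mm10 chromosome X, 150547375 to 150570638, protein-coding), had 167, 215 and 186 CPM in homozygous SCFA libraries and 873, 713 and 882 CPM in homozygous untreated libraries, against 1447.0, 2171.6 and 1836.4 CPM in control untreated libraries. It fell by 3.27 ± 0.16 (SE, adjusted p = 3.2e-09). Control SCFA libraries, at 826, 793 and 782 CPM, were also below control untreated ones. Epb42, a protein of the red cell skeleton, had 16.6, 19.6 and 16.6 CPM in homozygous SCFA libraries and 89.4, 96.3 and 84.5 CPM in homozygous untreated libraries, against 106, 129 and 119.7 CPM in control untreated libraries (log2 fold change -2.74 ± 0.13, adjusted p = 3.0e-09). Fech, which inserts iron into heme, fell by 1.89 (adjusted p = 2.4e-08). The median of the list was -1.64, with 1 rise, and its sum was 3026.5 to 3386.2 CPM in homozygous SCFA libraries and 9915.7 to 12986.1 CPM in homozygous untreated libraries, against 19155.4 to 21005.8 CPM in control untreated libraries. The fall of Car2, a carbonic anhydrase that osteoclasts use as well, was smaller at 1.49 (adjusted p = 3.3e-07). Car2 was also lower in control SCFA than in control untreated libraries (-1.27, adjusted p = 5.2e-05), with no call between the 2 SCFA groups (-0.22, adjusted p = 0.2). Between control SCFA and control untreated libraries 11 of the 19 genes fell and 0 rose. Over all 15674 genes 2039 fell and 1393 rose there. The list summed to 11990.0 to 14078.7 CPM in control SCFA libraries.

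Among the members that did not fall, Tfrc, the transferrin receptor that dividing cells use to take up iron, was back at the control level, with 377, 302 and 347 CPM in homozygous SCFA libraries and 516, 655 and 592 CPM in homozygous untreated libraries, against 412, 274 and 326 CPM in control untreated libraries (equivalence adjusted p = 0.0266). Klf1, an erythroid transcription factor, was at -0.35 (adjusted p = 0.38), and Epor, the erythropoietin receptor, at -0.18 (adjusted p = 0.829), with equivalence shown for neither. Car1, a carbonic anhydrase expressed early in red cell development, went the other way and had the largest rise of the genes named: it had 59.5, 46.7 and 45.5 CPM in homozygous SCFA libraries and 7.59, 8.28 and 6.77 CPM in homozygous untreated libraries, against 1.65, 0.805 and 0 CPM in control untreated libraries. Its log2 fold change was 5.98 ± 0.77 (SE, adjusted p = 1.0e-04), with 7.01 without control untreated 1 and 5.35 without control untreated 3. Among the 16 genes of heme synthesis and iron uptake 6 fell and 1 rose, beside 6.92% and 4.9% of all genes, at a median of -0.37.

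**Figure D3:**
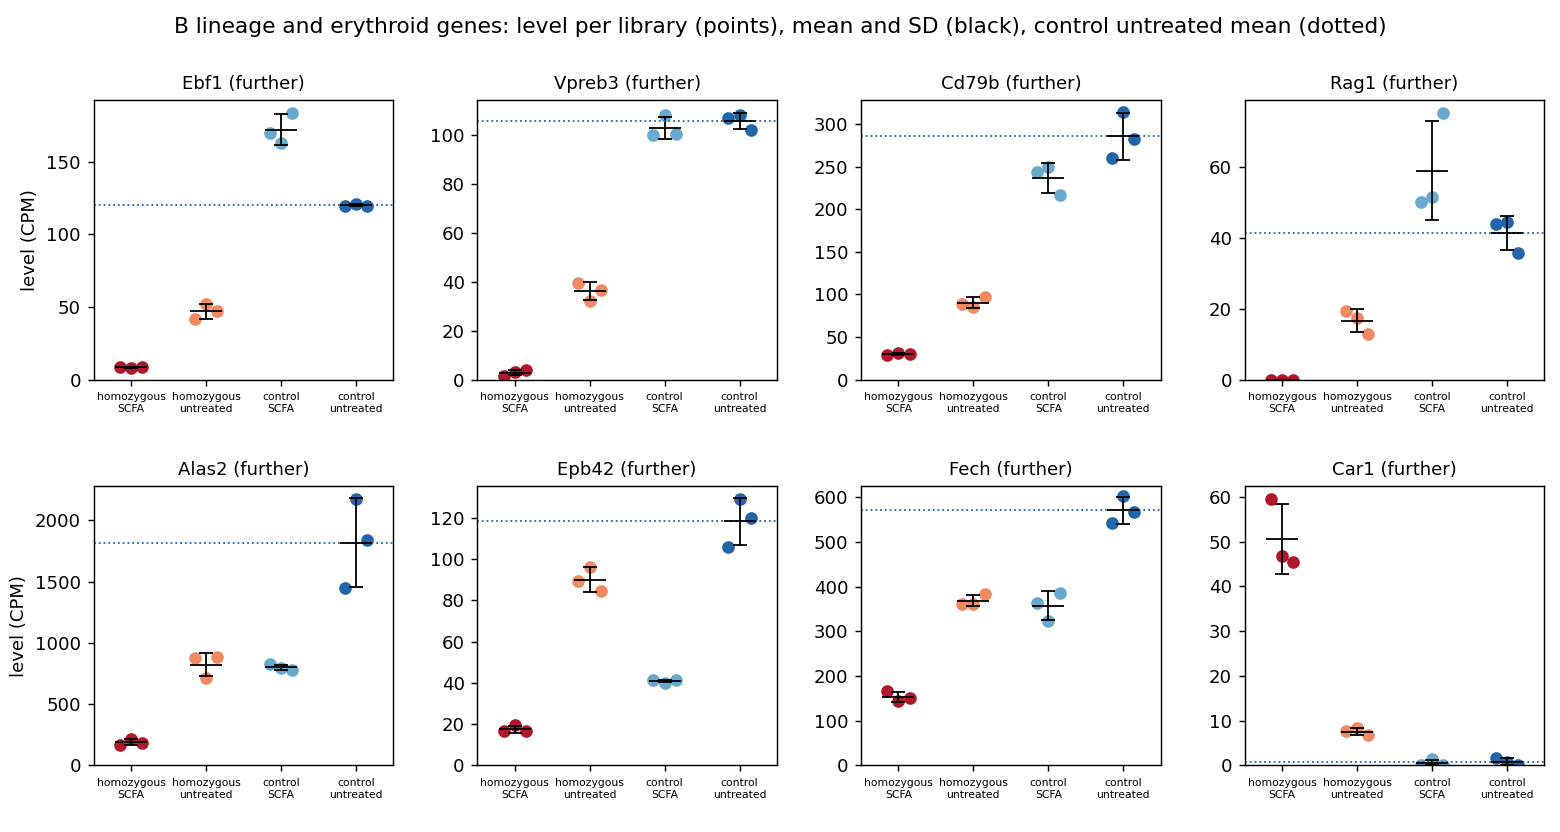
Level in CPM (y axis) of 4 B lineage genes (upper row) and 4 red cell lineage genes (lower row) in each library (points) of the 4 groups (x axis), with group mean and SD in black (n = 3) and the control untreated mean as a dotted line. For 7 of the genes homozygous SCFA libraries are the lowest and homozygous untreated libraries lie between them and the dotted line; for Car1 homozygous SCFA libraries are the highest, at 45.5 to 59.5 CPM.

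Of 14 megakaryocyte and platelet genes tested 9 rose and 0 fell. Pf4, platelet factor 4, had 527, 529 and 413 CPM in homozygous SCFA libraries and 216, 166 and 142 CPM in homozygous untreated libraries, against 202, 128 and 112 CPM in control untreated libraries. The homozygous SCFA libraries stood above all others, up by 1.73 ± 0.21 (SE, adjusted p = 5.1e-05), while the 2 untreated groups overlapped. Ppbp, another platelet chemokine, was up by 1.16 (adjusted p = 5.7e-04). Vwf, the von Willebrand factor, and Tubb1, the platelet tubulin, crossed from below the control level to 0.66 and 0.63 above it (adjusted p = 0.0368 and 0.0196). The median of the list was 0.82, and 5 members rose without homozygous SCFA 3.

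The macrophage complement genes crossed in the same direction. C1qc, a chain of the complement recognition protein C1q, had 63.9, 68.9 and 63.8 CPM in homozygous SCFA libraries and 20.5, 18.6 and 16.6 CPM in homozygous untreated libraries, against 34.4, 37.6 and 32.1 CPM in control untreated libraries. The other 2 chains moved alike, with log2 fold changes of 0.92 for C1qa (adjusted p = 0.00885), 0.79 for C1qb (adjusted p = 0.00678) and 0.92 ± 0.14 for C1qc (adjusted p = 4.3e-04). Adgre1, the F4/80 antigen of macrophages, kept a rise of 0.81 (adjusted p = 3.8e-04). In control SCFA libraries Adgre1 was also above control untreated (0.52, adjusted p = 0.0109), with no call between the 2 SCFA groups (0.29, adjusted p = 0.113). Of 13 macrophage genes tested 5 rose and 0 fell, beside 4.9% and 6.92% of all genes, at a median of 0.58. The sum of the list was 837 to 859 CPM in homozygous SCFA libraries and 591 to 666 CPM in homozygous untreated libraries, against 523 to 546 CPM in control untreated libraries. Between control SCFA and control untreated libraries 5 of the 13 rose and 0 fell as well, at a median of 0.66. Against control SCFA libraries, which summed to 658 to 692 CPM, 4 rose and 0 fell in homozygous SCFA libraries, at a median of -0.08.

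MHC class II genes were above both untreated groups, and several dendritic cell markers of the same list were lower. H2-Aa, the alpha chain that presents peptide to helper T cells, had 425, 458 and 446 CPM in homozygous SCFA libraries and 246, 244 and 227 CPM in homozygous untreated libraries, against 231, 251 and 222 CPM in control untreated libraries. It was up by 0.92 ± 0.10 (SE, adjusted p = 2.2e-05), and H2-DMb1, which helps to load peptide, by 1.17 ± 0.14 (SE, adjusted p = 6.8e-05). H2-Ab1, the beta chain, was up by 0.94 (adjusted p = 8.3e-04), and Cd74, the invariant chain, crossed from below the control level to 0.50 above it (adjusted p = 0.0465). Of the 13 genes tested 6 rose and 3 fell, beside 4.9% and 6.92% of all genes, at a median of 0.50. All 6 rises were of MHC class II presentation genes, and the 3 falls were of Flt3, a growth factor receptor of dendritic cell precursors, the integrin Itgax and the lectin Cd209a. The falls numbered 1 without control untreated 2 or homozygous SCFA 2, 2 without control untreated 3 or homozygous SCFA 1 and 0 without homozygous SCFA 3, and the rises numbered 4 without control untreated 3. Ciita, the master regulator of class II genes, was at 0.19 (adjusted p = 0.683).

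Of 15 monocyte genes tested 5 rose in homozygous SCFA and 7 in homozygous untreated libraries, each against control untreated. Of all genes 4.9% and 6.69% rose in these 2 comparisons. Lyz2, the lysozyme of myeloid cells, had 16662.6, 17245.6 and 16409.9 CPM in homozygous SCFA libraries and 13396.7, 13412.6 and 12784.2 CPM in homozygous untreated libraries, against 9798.5, 10140.3 and 9682.5 CPM in control untreated libraries. It lay further from control under SCFA (log2 fold change 0.76 ± 0.08, adjusted p = 6.9e-06). F13a1, a coagulation factor chain of monocytes, kept a rise of 0.64 (adjusted p = 8.9e-04), and Ccr2, the receptor through which monocytes leave marrow, kept one of 0.81 (adjusted p = 0.00144). Ly6c2, the antigen of inflammatory monocytes, was partly back at 0.46 (adjusted p = 0.0184). The median of the list in homozygous SCFA libraries was 0.46 with 0 falls, 2 members passed the 1.5-fold equivalence test, and 8 rose without control untreated 1.

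Primary granule genes of neutrophils were largely at the control level, and a share of the late-stage ones was above it. Of the 10 primary granule genes tested 7 passed the 1.5-fold equivalence test, or 3 to 6 in the 8 fits that gave any, and the other 3 passed neither test; among the 7 was Elane, neutrophil elastase (-0.01, equivalence adjusted p = 0.0277). Ms4a3, a marker of granulocyte and monocyte progenitors, was back, with 222, 209 and 191 CPM in homozygous SCFA libraries and 477, 408 and 386 CPM in homozygous untreated libraries, against 229.6, 175 and 216 CPM in control untreated libraries. Of 18 late neutrophil genes 6 rose and 0 fell, beside 4.9% and 6.92% of all genes, at a median of 0.29. Their summed level, given at the start, did not overlap between homozygous SCFA and control untreated libraries. It was 68406.9 to 88581.8 CPM in homozygous untreated and 68612.4 to 74249.4 CPM in control SCFA libraries, both overlapping the homozygous SCFA libraries. Ly6g, the surface antigen of neutrophils, was at -0.07 and Ngp, a granule protein, at 0.07. The 6 rises numbered 2 without control untreated 2 or 3, 1 without homozygous SCFA 1 and 3 without homozygous SCFA 2. Fpr1, the receptor for bacterial formyl peptides, and Mmp8, a granule collagenase, kept rises of 0.46 (adjusted p = 0.0119) and 0.44 (adjusted p = 0.0132), that of Mmp8 lost without homozygous SCFA 1 (adjusted p = 0.0756).

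The stefins, inhibitors of cysteine proteases whose genes lie mostly in a cluster on chromosome 16, kept most of their rise. Stfa2 had 35.7, 28.9 and 31 CPM in homozygous SCFA libraries and 27.1, 21.5 and 17.1 CPM in homozygous untreated libraries, against 4.39, 1.29 and 3.52 CPM in control untreated libraries. The homozygous groups did not overlap control libraries, with or without SCFA, and the log2 fold change was 3.38 ± 0.38 (SE, adjusted p = 2.5e-05). Cstdc5 and Csta2 were at 3.44 (adjusted p = 7.1e-06) and 3.17 (adjusted p = 1.8e-06). Of 9 stefins tested 8 rose and 7 of these were kept, at a median of 2.51 against control untreated and 0.28 against homozygous untreated libraries. The split of reads among these close copies is uncertain.

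Of 15 eosinophil, basophil and mast cell genes tested 5 rose, 3 fell and 7 were not called, beside 4.9% rising and 6.92% falling of all genes. Fcer1a, the alpha chain of the IgE receptor, had 83.7, 71.1 and 71.8 CPM in homozygous SCFA libraries and 46.8, 32.5 and 37.6 CPM in homozygous untreated libraries, against 17.5, 8.85 and 13.3 CPM in control untreated libraries. It was up by 2.52 ± 0.24 (SE, adjusted p = 4.9e-06) and lay further from control under SCFA. Cpa3, a mast cell protease, and Mcpt8, a basophil protease, kept rises of 1.24 (adjusted p = 0.00434) and 0.66 (adjusted p = 7.0e-04). Epx and Prg2, the peroxidase and major basic protein of eosinophil granules, fell by 1.31 (adjusted p = 9.4e-04) and 0.67 (adjusted p = 0.00227). The rises numbered 3 without control untreated 3 or homozygous SCFA 1.

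Of 19 immediate early genes, which cells switch on within minutes of a stimulus, 5 crossed the control level upward, 2 were back, 2 kept and 6 undecided. Egr1, a zinc finger transcription factor, had 226, 238 and 229.6 CPM in homozygous SCFA libraries and 44.7, 40.4 and 41.9 CPM in homozygous untreated libraries, against 85.5, 86.1 and 87.8 CPM in control untreated libraries. It was below the control level without SCFA and above it with SCFA, at 1.42 ± 0.11 (SE, adjusted p = 5.5e-07). Fos, which pairs with Jun proteins, had 665, 667 and 684 CPM in homozygous SCFA libraries and 165, 197 and 196 CPM in homozygous untreated libraries, against 278, 268 and 242 CPM in control untreated libraries (log2 fold change 1.35 ± 0.11, adjusted p = 6.2e-07). Control SCFA libraries were also above control untreated ones for Fos, at 439, 404 and 417 CPM. Dusp1, a phosphatase that ends kinase signalling, was up by 0.98 (adjusted p = 1.6e-05). Egr2 was up by 0.79 (adjusted p = 0.0467), a call lost without control SCFA 2, control untreated 1 or 2, homozygous SCFA 1 or 2, or homozygous untreated 3 (adjusted p = 0.0576, 0.0993, 0.141, 0.171, 0.0854 and 0.0583). Of 19 genes tested 6 rose and 1 fell, at a median of 0.38, against -0.61 between homozygous untreated and control untreated libraries. The fall was that of Jund, by 1.02 (adjusted p = 3.8e-04), and the rises numbered 4 without homozygous SCFA 2, while Klf2 and Btg2 were back (equivalence adjusted p = 0.0339 and 0.0217).

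Of 18 inflammatory cytokines and chemokines 8 rose, 5 of them displaced upward, and 10 were not called. Il1b, interleukin 1 beta, had 460.4, 503 and 478 CPM in homozygous SCFA libraries and 286, 313 and 278 CPM in homozygous untreated libraries, against 243, 247 and 254 CPM in control untreated libraries. It was up by 0.95 ± 0.10 (SE, adjusted p = 1.3e-05), with every homozygous SCFA library above every other library. Cxcl2, a chemokine for neutrophils, was up by 1.07 (adjusted p = 8.1e-04), with 69.7, 66.4 and 72.3 CPM in homozygous SCFA libraries, all below the 85.6, 83.9 and 107 CPM of control SCFA libraries. Ccl3, a chemokine for monocytes, crossed upward at 0.75 (adjusted p = 0.00567). The median of the list was 0.70, with 0 falls. Saa3, an acute phase protein that macrophages make, had 624, 735 and 618 CPM in homozygous SCFA libraries and 378, 309 and 293 CPM in homozygous untreated libraries, against 254, 238 and 217 CPM in control untreated libraries, and lay further from control at 1.48 ± 0.13 (SE, adjusted p = 1.2e-06).

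**Figure D4:**
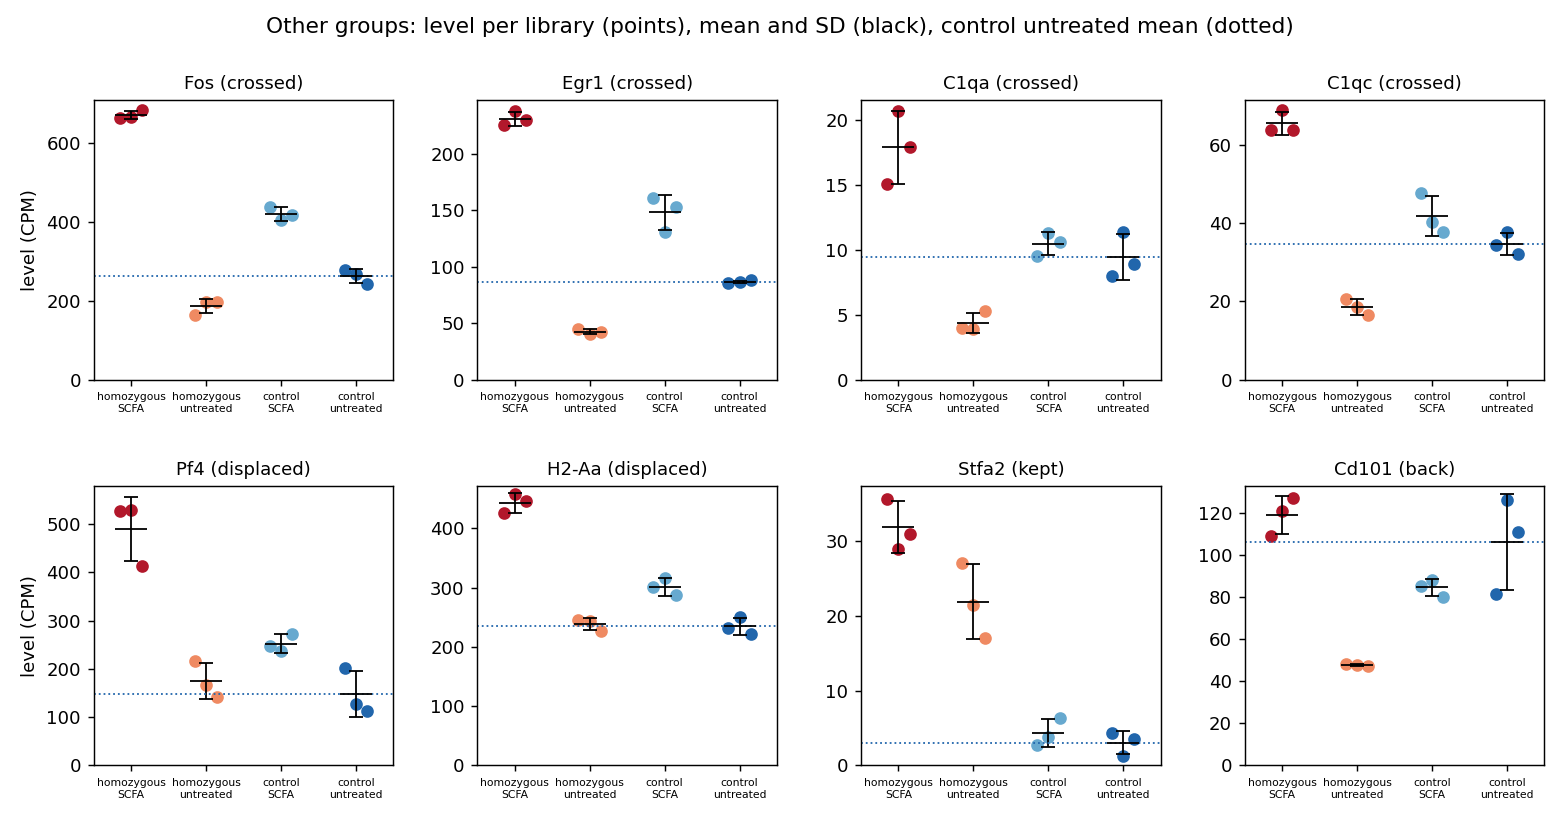
Level in CPM (y axis) of 8 genes of the myeloid, platelet and immediate early groups in each library (points) of the 4 groups (x axis), with group mean and SD in black (n = 3) and the control untreated mean as a dotted line. Fos, Egr1, C1qa and C1qc are below the dotted line in homozygous untreated libraries and above it in homozygous SCFA libraries; Pf4 and H2-Aa leave it in homozygous SCFA libraries, Stfa2 stays above it in both homozygous groups and Cd101 returns to it.

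Genes tied to osteoclasts, STAT3 and SCFAs were examined because the study concerns bone remodelling by osteoclasts. Tnfrsf11a, the RANK receptor through which osteoclasts form, had 35.9, 33.6 and 30.3 CPM in homozygous SCFA libraries and 31.8, 19.9 and 27.5 CPM in homozygous untreated libraries, against 10.3, 14.9 and 14.3 CPM in control untreated libraries. Its rise of 1.33 ± 0.20 (SE, adjusted p = 3.2e-04) was kept. Control SCFA libraries, at 27.9, 27.8 and 32.5 CPM, were also above control untreated ones, by 1.15 (adjusted p = 0.00431). Between homozygous SCFA and control SCFA libraries Tnfrsf11a was not called (0.18, adjusted p = 0.566). Acp5, the osteoclast acid phosphatase TRAP, kept a fall of 1.27 (adjusted p = 0.00223). Csf1r, the M-CSF receptor, was at 0.48 (adjusted p = 0.0724) and passed only without control untreated 2 (adjusted p = 0.0154). Of 19 osteoclast genes tested 5 rose and 2 fell, beside 4.9% and 6.92% of all genes, at a median of 0.35. The fusion genes Dcstamp and Ocstamp were too low to be tested. Socs3, the feedback inhibitor induced by STAT3, was at 0.08 (adjusted p = 0.861), with -0.08 without control untreated 1. It missed the 1.5-fold equivalence test (adjusted p = 0.0601), so its position was undecided. Socs3 was lower in homozygous untreated than in control untreated libraries (-0.67, adjusted p = 0.0355). In homozygous SCFA libraries it was above homozygous untreated (0.74, adjusted p = 0.0277) and above control SCFA libraries (1.09, adjusted p = 0.00181). Cish, a relative of Socs3, kept a rise of 1.10 (adjusted p = 0.00777). In the list of 23 STAT3 and interleukin 6 family genes 2 rose and 2 fell, beside 4.9% and 6.92% of all genes. There were 4 rises without control untreated 1 and 1 fall without control untreated 2 or without homozygous SCFA 1, 2 or 3. Against homozygous untreated libraries 7 of the list rose and 0 fell, beside 3.96% and 5.61% of all genes. Against control SCFA libraries 11 rose and 0 fell, beside 1394 rises and 1328 falls among all 15674 genes. Ffar2, a receptor for SCFAs, had 9.98, 12.8 and 12.7 CPM in homozygous SCFA libraries, against 10.1, 12 and 9.74 CPM in control untreated libraries, and passed neither test. Hcar2, a receptor for butyrate and niacin, was displaced upward by 1.01 (adjusted p = 2.7e-04), and Acss1, the mitochondrial enzyme that activates acetate, kept a fall of 1.81 (adjusted p = 3.8e-06). Of 11 histone deacetylases 5 fell and 0 rose, beside 6.92% and 4.9% of all genes, at a median of -0.43. The falls were led by Hdac9, also expressed in B cells, with a fall of 3.01 ± 0.20 (SE, adjusted p = 7.0e-08).

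A few large changes fell outside these groups. Gdpd3, a lysophospholipase, had 19.8, 28.2 and 25 CPM in homozygous SCFA libraries and 1.57, 1.13 and 1.81 CPM in homozygous untreated libraries, against 2.51, 3.01 and 1.81 CPM in control untreated libraries. Control SCFA libraries, at 25.9, 26.2 and 22.2 CPM, overlapped the homozygous SCFA ones, so that the 2 SCFA groups stood together and apart from the 2 untreated ones (log2 fold change 3.32 ± 0.24, adjusted p = 2.2e-07). Shtn1, which acts in axon growth, and Skint3, of a butyrophilin-like family, were displaced upward by 2.81 (adjusted p = 8.7e-04) and 2.64 (adjusted p = 0.0081), Skint3 by 3.40 without control untreated 1. Eda2r, the receptor of ectodysplasin A2, was up by 2.79 (adjusted p = 0.0396). That call was lost in 8 of 12 fits, with adjusted p = 0.0947 and 0.148 without control untreated 2 and 3, 0.104, 0.0801 and 0.0781 without homozygous SCFA 1, 2 and 3, and 0.0683, 0.0649 and 0.056 without homozygous untreated 1, 2 and 3; without control untreated 1 the value was 4.46. Dtx1, a Notch regulator, kept a fall of 3.54 ± 0.30 (SE, adjusted p = 1.1e-06). Cd101, a receptor that marks mature neutrophils, and Nfkbid, a nuclear inhibitor of NF-kappa-B, were low in homozygous untreated libraries and back under SCFA. Cd101 had 109, 121 and 127 CPM in homozygous SCFA libraries and 48.4, 47.8 and 47.2 CPM in homozygous untreated libraries, against 81.5, 126 and 111 CPM in control untreated libraries. Their 1.5-fold calls were lost in 11 of 12 and 9 of 12 fits and held in all 12 at a 2-fold margin.

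Most ribosomal protein and mitotic genes passed as being at the control level. Of 20 cytosolic ribosomal protein genes 16 passed the 1.5-fold equivalence test and 1 fell, a fall called without control untreated 1 or homozygous untreated 3 and in no other fit with 1 library left out. The equivalence test was passed by 12 of 18 genes of G2 and M phase and by 7 of 15 of S phase. Falls of G2 and M phase genes numbered 2, with 3 without control untreated 1 and 0 without control SCFA 2, control untreated 2 or 3, or any 1 homozygous SCFA library; they numbered 1 without control SCFA 1 or 3 or without homozygous untreated 1 or 2. The equivalence test was passed by 7 of 16 glycolytic enzymes, 8 of 20 nuclear oxidative phosphorylation genes, 1 of 12 mitochondrially encoded genes and 3 of 10 heat shock chaperones. Of all 15674 genes tested 2210 (14.1%) passed it, and 6.92% fell. Cdk1, the kinase that drives mitosis, was back, with 58.7, 55.3 and 51.1 CPM in homozygous SCFA libraries and 84.6, 74.8 and 78.5 CPM in homozygous untreated libraries, against 49.4, 53.4 and 57.8 CPM in control untreated libraries. In the 8 fits that gave any equivalence call, 4 to 16 ribosomal, 7 to 10 G2 and M phase, 6 to 7 S phase, 3 to 8 glycolytic and 4 to 12 oxidative phosphorylation genes passed it. Without control untreated 1 the ribosomal count was 4, and 5 oxidative phosphorylation genes rose.

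**Figure D5:**
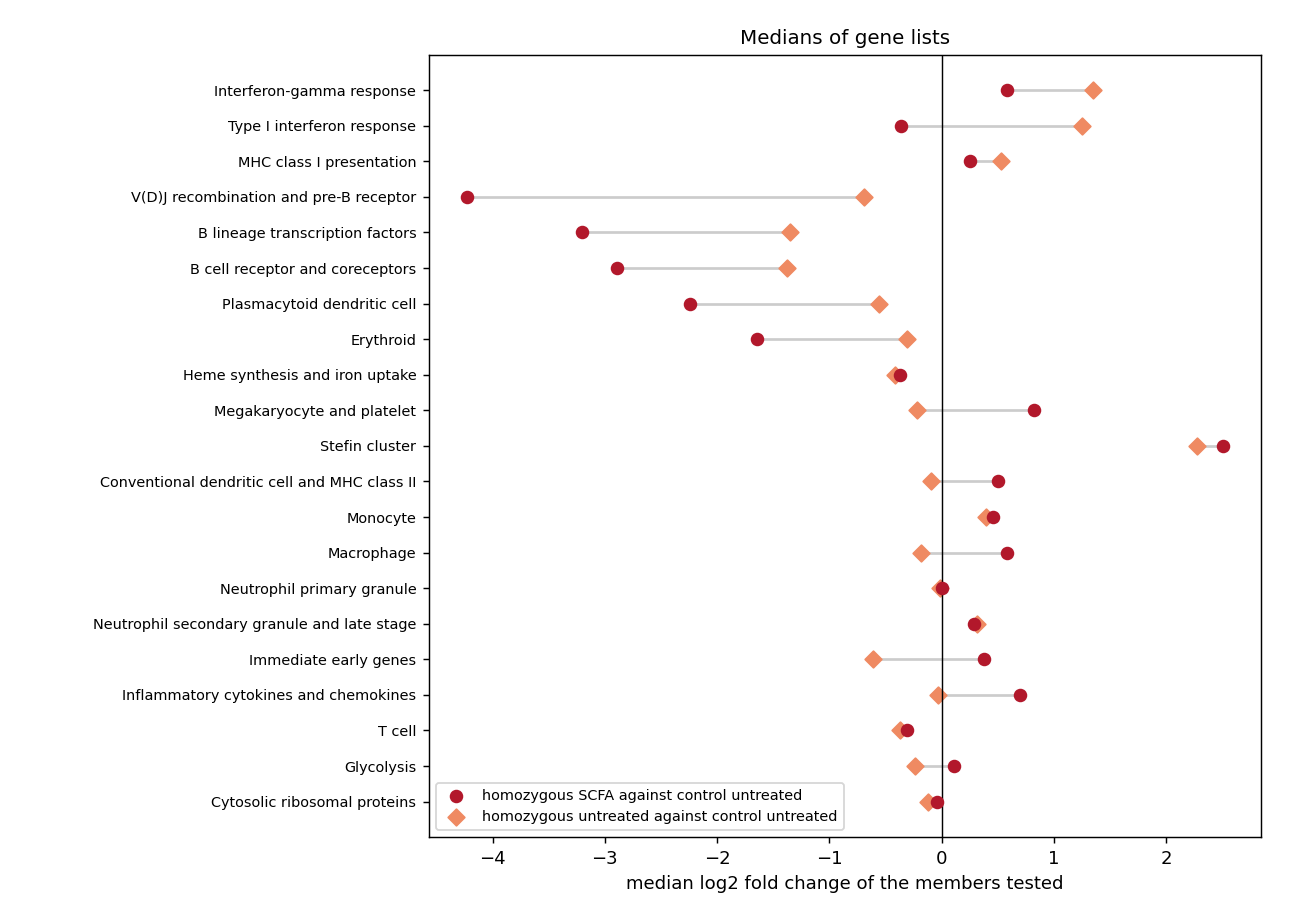
Median log2 fold change (x axis) of the members tested in 21 gene lists (y axis), for homozygous SCFA against control untreated (dots) and homozygous untreated against control untreated (diamonds), which share the control untreated libraries; members at 0 counts are at their bound. The type I interferon list has its dot at -0.36 and its diamond at 1.25, the B lineage, plasmacytoid and erythroid lists lie further below 0, and the stefin list is at 2.51 and 2.28.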

How the data were processed

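RNA came from 12 bone marrow cultures in 4 groups of 3 libraries, made with a low-input polyA kit, per the labels' protocols. The authors deposited 1 table of raw read counts for 55291 gene symbols, 22077 of them without a read in any library; the counts were made with STAR and featureCounts on mm10, per the submitters' processing notes. The sources used here give neither the strand setting nor the annotation used for counting, so reads of overlapping or antisense genes cannot be told apart. All value columns were mapped to a sample by name.

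Genes with low counts were removed by filterByExpr, and the remaining 15674 were tested with edgeR 4.0.16 (quasi-likelihood F test, TMM factors, R 4.3.3) in 1 fit of all 12 libraries with 4 group means. P-values were adjusted by Benjamini-Hochberg over all genes tested, with a threshold of 0.05. A gene was placed within 1.5-fold by 2 one-sided quasi-likelihood tests. Classes combine these calls: back, partly back, kept, further and crossed are defined where they are first counted, and displaced genes were called the same way against both untreated groups. Fold bounds for genes at 0 use 3 counts over the group. Tables were made with Python 3.11.15, pandas 2.3.3, numpy 2.4.6, scipy 1.17.1 and matplotlib 3.10.9.

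On simulated counts for this comparison, 0 of 15674 genes were called with none changed. With changes added, 8 of 67 genes were called at 1.5-fold, 30 of 67 at 2-fold and 50 of 66 at 4-fold, and 3 of 91 calls were of unchanged genes. The equivalence test passed 4794 of 14938 unchanged genes and 0 of the changed ones.

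Coordinates are GENCODE M21 on mm10, in which 96.4% of symbols were found. Gene lists (40, with 633 symbols) and the groups compared were chosen with earlier results of these data known. Named genes are the 10 largest rises and falls of genes reaching 5 CPM without overlap, the 2 members of each list with the smallest p, 8 genes of each of 4 classes (back, further, crossed, displaced) and Stat3, Socs3, Cd4, Tnfrsf11a, Csf1r and Ffar2. Some of these 106 are left out for brevity, and other list members are named after their values were seen. Alternatives were RLE factors, DESeq2 1.42.0, limma 3.58.1 (voom with quality weights), no filter, a replicate block, the 6 libraries alone, a 2-fold margin and each library left out. Results for a few genes are not reported here.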

Additional observations from a re-analysis of the deposited data

Results flagged for a closer look

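8 of the genes named as crossed were singled out because homozygous SCFA and homozygous untreated libraries lay on opposite sides of the control untreated level. The sides come from calls of opposite direction against control untreated. Of the crossed genes that met the naming rules, these 8 had the largest changes between the 2 homozygous groups. Between homozygous SCFA and homozygous untreated libraries the log2 fold change was 2.64 for Egr2, 2.45 for Egr1, 2.38 for Aqp1, a water channel of red cells and endothelium, and 2.03 for C1qa. It was -2.64 for Ifi208, -2.55 for Ifi27l2a, -2.39 for Usp18 and -1.99 for Irf7. That each of them crossed the control level, and by a large step, follows from this choice. The immediate early genes, the water channel and the complement gene were those going up, and the interferon-induced genes those going down. Aqp1 was no longer called against control untreated without control untreated 3 (adjusted p = 0.0513).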

How the results depend on the processing

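Falls against control untreated kept a count within 1.5 times of 1084 in every alternative run. Genes called against control untreated numbered 1109 with the 6 libraries alone, 365 of them rises, and rises numbered 1187 with DESeq2 and 1330 with limma-voom. Called genes numbered 2310 (DESeq2) and 2988 (voom) between homozygous SCFA and homozygous untreated, 3922 (voom) between homozygous untreated and control untreated, and 4762 (voom) between homozygous SCFA and control SCFA. Within 1.5-fold were 3711 (DESeq2), 3748 (voom) and 0 (6 libraries), and within 2-fold 8312. Back were 531 (DESeq2), 788 (voom) and 397 (2-fold margin); partly back 39 (DESeq2), 63 (voom), 39 (no filter) and 12 (2-fold margin); kept 908 (DESeq2) and 1110 (voom); crossed 52 (DESeq2) and 59 (voom). The cause of these differences was not tested.

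With 1 library left out the ranges were 1199 to 2724 called against control untreated (426 to 1338 rises, 773 to 1386 falls), 743 to 1998 between homozygous SCFA and homozygous untreated, 770 to 4333 between homozygous untreated and control untreated, 1431 to 3282 between homozygous SCFA and control SCFA, and 613 to 5090 between control SCFA and control untreated. They were 0 to 2002 within 1.5-fold, 0 to 196 back, 15 to 53 partly back, 261 to 1464 kept, 103 to 232 further, 11 to 32 crossed, 294 to 2356 undecided and 254 to 548 displaced. Margins of 2-fold gave 7190 to 8263 within it and 114 to 766 back. Of the 1272 values of named genes in these fits 1146 kept direction and call, 124 lost the call, 1 gained it and 1 reversed, Socs3 at -0.08 without control untreated 1, with values up to 0.23 without homozygous SCFA 1.

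Replicate numbers did not pair the libraries: same-numbered homozygous SCFA and control untreated libraries correlated at 0.0182 to 0.108. With the replicate block 1773 genes were called against control untreated and 125 were back, and 100 of 106 named genes kept their call, while with the 6 libraries alone 18 of 106 lost it. On simulated counts 8 of 67 genes changed 1.5-fold were called, so a gene without a call may differ by that much.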
